A study of Mus musculus with 90 samples.

Results

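Hippocampi of APP/PS1 mice that had received an antisense oligonucleotide against Cd33 for 14 days, and were collected after a pump-free interval, were compared with hippocampi of mice given a control oligonucleotide on the same schedule. The comparison was formed by the sample titles and held 18 of the 90 arrays of the series, 9 with the CD33 ASO and 9 with the control ASO, each from a separate animal. It was read across the 9741 genes that could be named and detected. An antisense oligonucleotide (ASO) is a short synthetic nucleic acid that pairs with a transcript and lowers it.

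Both groups were of the APP/PS1 strain, a double transgenic model of Alzheimer's disease, so that no group lacked the transgenes. Both were cannulated into the right lateral ventricle at 18 weeks of age and received 40 µg of ASO per day in 6 µL per day from an osmotic pump. Per the labels, the pumps of these animals were removed when the infusion ended, and tissue was collected at 22 weeks. The left whole hippocampus was taken. The 28-day groups, used below for comparison, had their pumps replaced and were collected at the same age, with 13 hippocampal arrays per ASO. The 14-day and the 28-day groups therefore differed in the length of infusion, in total dose and in the pump-free interval, which cannot be told apart. The control ASO had no target per the labels, and no untreated animals were used here.

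CD33 is a sialic acid-binding receptor of the Siglec family on microglia and other myeloid cells. Its cytoplasmic tail carries inhibitory motifs that recruit phosphatases and oppose activating receptors such as TREM2 with its adaptor TYROBP. Variants at the human gene are linked to the risk of Alzheimer's disease, and around amyloid plaques microglia take on a state with high levels of phagocytic and lysosomal genes.

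Across the 18 arrays, the CD33 ASO arrays had a median signal of 31.2 to 38.9 and detected 45.8% to 50.9% of the probes, against 28.5 to 46.4 and 42.8% to 50.2% for the control ASO arrays. The hippocampal label held against its markers, as 12 of 14 tested subfield genes had a higher mean in the 18 hippocampal than in the 18 frontal cortical arrays of the same cohort, and 7 of them did so without overlap. C1ql2, a granule cell gene, was 6.11 log2 units higher and Prox1, another, 2.62, whereas Wfs1 and Tyro3 had lower means in the hippocampus. The arrays lay on 6 chips that each held both ASOs. The first 3 principal components held 13.3%, 12.4% and 11.6% of the variance. The second followed the chip (adjusted R2 = 0.639), and the ASO accounted for none of the 3 (adjusted R2 of 0 or less).

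Of the 9741 genes, 2 changed at an adjusted p under 0.05, which is 0.0205% of those tested. Cd33, the targeted gene, fell (0.0103% of genes fell), and Avil rose (0.0103% rose). Avil encodes advillin, an actin-bundling protein of the gelsolin and villin family known from sensory neurons. At an unadjusted p under 0.05 there were 577 genes, 5.92% of those tested, where 487 would be reached by chance alone. Of these, 291 (2.99% of genes) were higher with the CD33 ASO and 286 (2.94%) lower. The middle of the distribution was at 0, with a median log2 difference of 0.00, and the 5th and the 95th percentile were -0.18 and 0.19. In all, 36 genes had a difference over 0.5 in size.

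**Figure D1:**
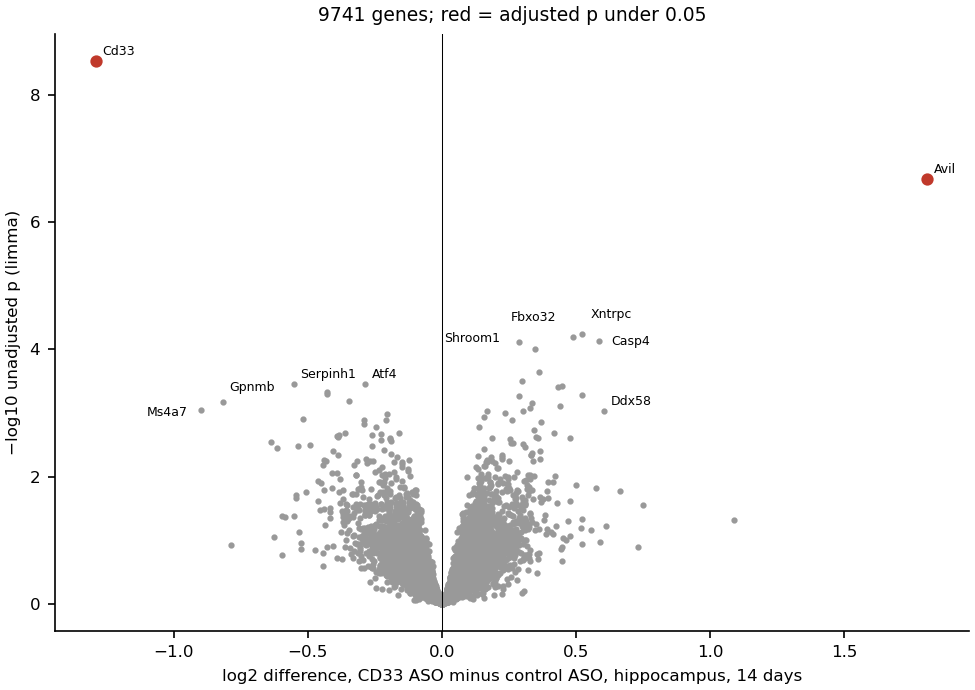
The log2 difference between the CD33 ASO and the control ASO (horizontal) is plotted against the unadjusted p of each of the 9741 genes in the 14-day hippocampus, as −log10 (vertical). Cd33 on the left and Avil on the right stand away from all other genes, and the Avil value is the fitted one, drawn although no control array detected the gene.

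Cd33 had a normalized log2 intensity of 4.94 at its lowest, 5.21 at its median and 5.92 at its highest among the 9 CD33 ASO arrays, against 6.25, 6.51 and 7.03 among the 9 control ASO arrays. The groups did not overlap, and the highest CD33 ASO array lay below the lowest control array. The means were 5.32 ± 0.36 with the CD33 ASO and 6.61 ± 0.26 with the control ASO (SD, n = 9 each), so that Cd33 fell by 1.29 ± 0.17 (SE) on the log2 scale (adjusted p = 2.8e-05 by limma). Without background correction the difference was -0.81. An exact 2-sided permutation test of the same 18 values gave p = 4.1e-05, the smallest that 9 against 9 arrays allow. Cd33 was detected on 2 of 9 CD33 ASO arrays and on 9 of 9 control ASO arrays, which places the lowered level at the edge of the background. The difference was below 0 within 6 of 6 chips, from -1.75 to -0.46. A second Cd33 probe was detected on 0 of 18 arrays and gave no information.

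Avil was detected on 8 of 9 CD33 ASO arrays and on 0 of 9 control ASO arrays. Its level was 5.45 at the lowest, 6.78 at the median and 7.47 at the highest with the CD33 ASO, against 4.66, 4.79 and 4.96 with the control ASO. All 9 CD33 ASO arrays lay above the highest control array, including replicate 8, on which the probe was not detected. Since no control array measured it, its rise is given as at least 1.55-fold (adjusted p = 0.0010), with group means of 6.62 ± 0.59 and 4.81 ± 0.09 (SD, n = 9 each). The exact permutation p was 4.1e-05, and Avil was higher with the CD33 ASO within 6 of 6 chips. Avil was picked from all genes by these same values, so neither is separate support. It is represented by 1 probe.

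**Figure D2:**
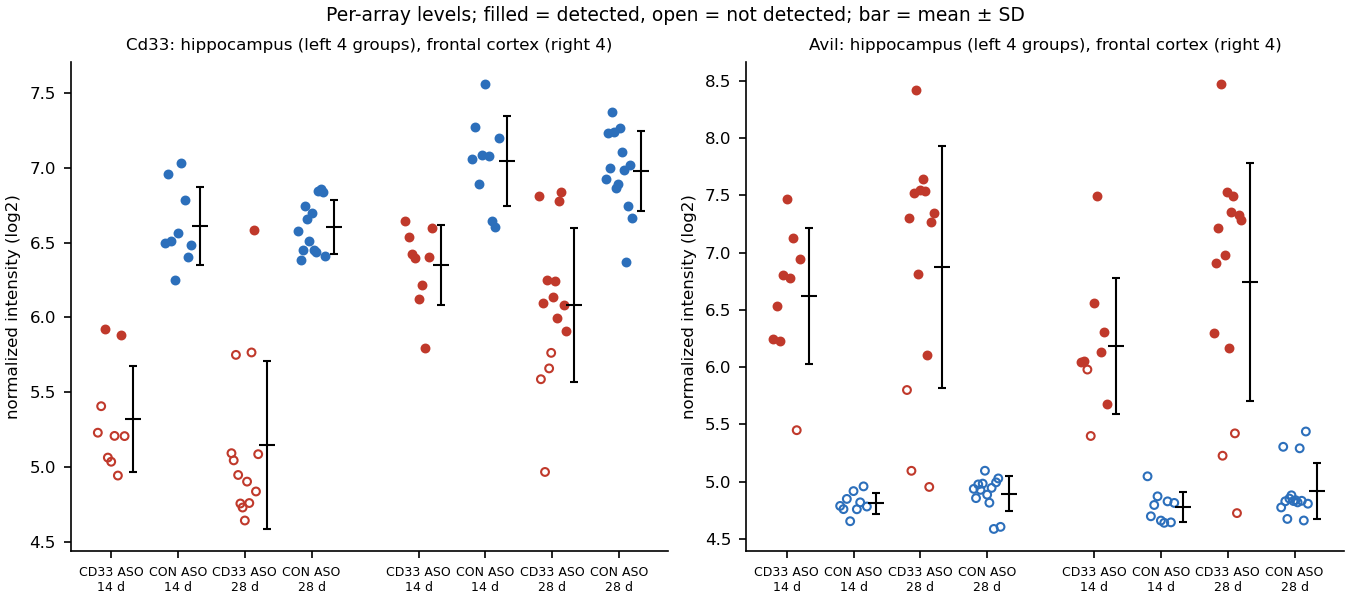
Each point is 1 array, with the normalized log2 intensity of Cd33 (left panel) or Avil (right panel) on the vertical axis and the group on the horizontal axis, red for the CD33 ASO and blue for the control ASO. In the hippocampus at 14 days, the CD33 ASO arrays reach at most 5.92 for Cd33 and start at 5.45 for Avil, where control arrays start at 6.25 and reach at most 4.96, and open points mark arrays that did not detect the gene.

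Sgk3, a serine/threonine kinase gene, was the only other gene whose 9 CD33 ASO arrays did not overlap the 9 control ASO arrays, which makes 3 genes or 0.0308% of those tested. It was singled out after its values were seen. It ranged from 8.26 to 8.52 with the CD33 ASO, with a median of 8.42, and from 8.53 to 8.76 with the control ASO, with a median of 8.62. The gap was narrow and the difference of -0.23 ± 0.07 missed the threshold (adjusted p = 0.47).

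In the frontal cortex of the same cohort, Avil was detected on 7 of 9 CD33 ASO arrays and on 0 of 9 control ASO arrays, at least 1.29-fold higher with the CD33 ASO. The 9 CD33 ASO arrays again lay above all control arrays (exact permutation p = 4.1e-05, means 6.18 ± 0.59 and 4.78 ± 0.13), although over all genes the cortical difference missed the threshold (adjusted p = 0.21). Most of the animals behind these arrays also gave the hippocampal arrays, so the cortical values are not an independent test of Avil. Cortical Cd33 averaged 6.35 ± 0.27 with the CD33 ASO and 7.04 ± 0.30 with the control ASO, with 8 of 9 CD33 ASO arrays under every control array. In the frontal cortex at 14 days 0 genes passed (limma), and 492 genes, 5.05%, had an unadjusted p under 0.05. In the 8 CD33 ASO and 9 control ASO animals with both tissues, the effect of the ASO on Cd33 was 0.57 ± 0.19 log2 units more negative in the hippocampus (difference of effects -0.57, adjusted p = 0.96). For no gene did the effect differ between the tissues at an adjusted p under 0.05, and 417 genes, 4.28%, had an unadjusted p under 0.05.

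Among the 9 CD33 ASO hippocampi, the 2 arrays that detected Cd33, at 5.88 and 5.92, had the lowest Avil levels, at 5.45 and 6.23. The next lowest Avil, on replicate 1 where Cd33 was not detected, was 6.25, so only 1 array stood clearly lower. The other 7 arrays had Cd33 that was not above background, so the order of Cd33 among them has no support and no test of Cd33 against Avil is given. Of the 3 chips that held 2 of these arrays, only 1 had a pair with Cd33 detected, on replicate 8 alone. Avil was 5.45 on that array and 6.94 on its partner, replicate 9. In the other pairs neither array detected Cd33, so their order of Cd33 is not read. Avil levels were related between the hippocampus and frontal cortex of an animal, with r = 0.81 and rho = 0.95 over 8 animals (exact permutation p = 0.021 and 0.0011, adjusted p = 0.031 and 0.0017 over 3 relations), and r was 0.72 without the 2 farthest from the median. Among these animals, Avil was not detected on hippocampal replicate 8 (5.45) or on frontal cortical replicate 4 (5.40). Both r and rho thus rest in part on values whose order has no support. The 3 relations include hippocampal Cd33 against Avil, whose own result is not given, and its inclusion lowered both adjusted values. The 2 pairs of animals that shared a chip in both tissues had the same order of Avil in both. The Avil relations were chosen after their values were seen. Residual Cd33 in the 2 tissues gave r = 0.39 and rho = 0.38 (exact permutation p = 0.33 and 0.36, n = 8), with r = 0.24 without the 2 farthest animals, and rests on the same hippocampal values near background.

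**Figure D3:**
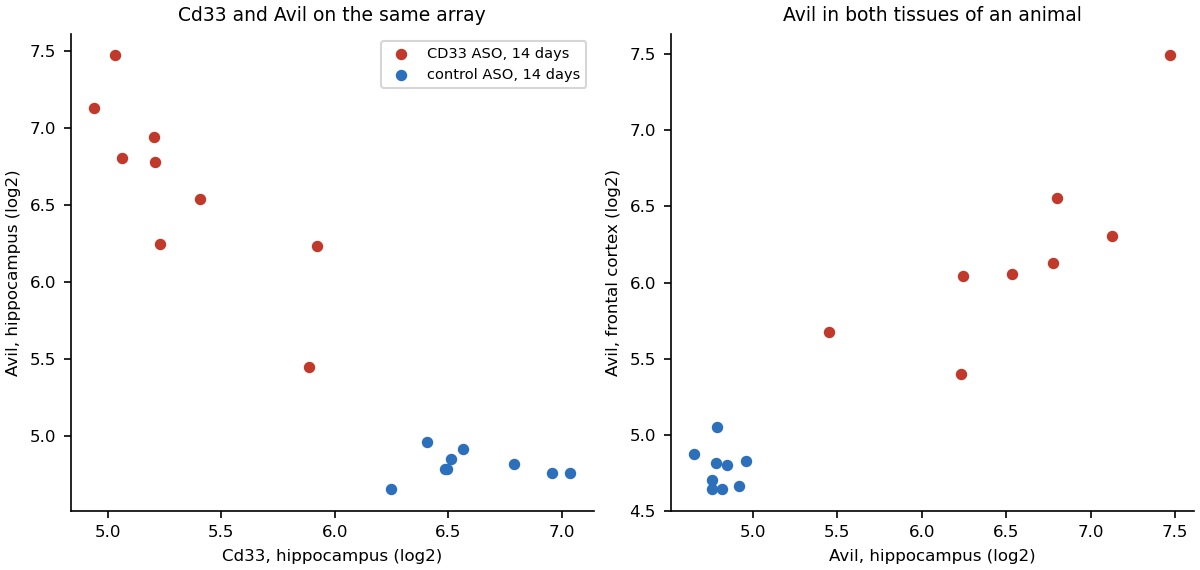
The left panel plots Avil against Cd33 on the same hippocampal array, and the right panel Avil in the frontal cortex against Avil in the hippocampus of the same animal, as normalized log2 intensities at 14 days, red for the CD33 ASO and blue for the control ASO. In the left panel the red points at Cd33 of 5.88 and 5.92 (the arrays that detected it) have Avil of 5.45 and 6.23. The next lowest Avil of a red point is 6.25, so only 1 point stands clearly lower. The red points climb in the right panel (r = 0.81), and the control points lie apart from them in both.

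Beyond these 2 genes, 23 further genes had the smallest p-values, and none passed (adjusted p from 0.12 to 0.35), so that their values are given as levels only. Xntrpc, Fbxo32, Casp4 and Shroom1 shared the lowest of these. Fbxo32, which encodes the muscle atrophy ubiquitin ligase subunit atrogin-1, ranged from 7.07 to 7.65 with the CD33 ASO (median 7.37) and from 6.63 to 7.17 with the control ASO (median 6.97). Of the CD33 ASO arrays 8 of 9 lay above every control array, but a second probe that was detected on all 18 arrays gave a difference of 0.05, against 0.49 for the first. Xntrpc, a read-through locus that spans the Trpc2 gene, had means of 7.28 ± 0.21 with the CD33 ASO and 6.75 ± 0.29 with the control ASO, and Shroom1, a cytoskeletal gene, of 8.53 ± 0.15 and 8.24 ± 0.14. Casp4, the intracellular lipopolysaccharide sensor caspase-11, was detected on 4 of 9 CD33 ASO arrays and 0 of 9 control ASO arrays, too close to background for a fold. With the 18 arrays of the 14-day groups fitted alone, Fbxo32 and Casp4 passed (adjusted p = 0.046 and 0.029).

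The other genes of small p that were higher with the CD33 ASO had log2 differences between 0.17 and 0.52. Among them were Lag3, an inhibitory immune receptor, at 0.52 ± 0.14, Bdh2, a short-chain dehydrogenase, at 0.45 ± 0.12, Rac3, a small GTPase, at 0.44 ± 0.12, and Abcd4, a lysosomal cobalamin transporter, at 0.43 ± 0.11. Pnpla7 (0.36), Tprkb (0.35), Pxmp2 (0.34), Gldc, the glycine decarboxylase (0.33), Unc119 (0.30), Cyp4f14 (0.29) and Rcl1 (0.17) completed the group. Second probes of Abcd4, Tprkb and Rac3 gave 0.24, 0.13 and 0.09. Ddx58, the cytosolic RNA sensor RIG-I, was detected on 4 of 9 CD33 ASO arrays and 0 of 9 control ASO arrays (adjusted p = 0.35).

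On the other side, Serpinh1, a collagen chaperone, was at 6.01 ± 0.31 with the CD33 ASO and 6.56 ± 0.38 with the control ASO, and was lower within 6 of 6 chips. Atf4, a transcription factor of the stress response, differed by -0.29 ± 0.07, and was also lower in 6 of 6 chips. Both genes were picked by p on these same arrays, so their agreement over the chips partly follows from that choice. The share over all genes was not taken. Adra2c, an adrenergic receptor, and Ccl21c, a chemokine with near-identical copies that a probe may not separate, both stood at -0.43 ± 0.11. A second Adra2c probe, detected on every array of both groups, gave -0.21. Skida1 differed by -0.35.

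After Cd33, the largest negative values belonged to the myeloid genes Ms4a7 and Gpnmb. Ms4a7, a membrane protein of macrophages, ranged from 5.45 to 6.85 with the CD33 ASO (median 6.20) and from 5.73 to 7.98 with the control ASO (median 7.36). The ranges overlapped, with 1 CD33 ASO array below the lowest control, and the difference of -0.90 ± 0.25 did not pass (adjusted p = 0.35). With the mean levels of choroid plexus, red blood cell and mural cell genes as covariates it passed, at -1.10 (adjusted p = 0.00088). Gpnmb, a glycoprotein of phagocytes that handle lipid and debris, ranged from 9.40 to 10.65 with the CD33 ASO (median 9.55) and from 9.49 to 11.41 with the control ASO (median 10.71). Its difference was -0.81 ± 0.22 (adjusted p = 0.34), and its second probe gave -0.72. In whole tissue, fewer cells of a type and less RNA per cell cannot be told apart.

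At 28 days, 40 genes, 0.411% of those tested, had passed in the hippocampus, 24 that fell (0.246%) and 16 that rose (0.164%). The animals of the 2 durations were separate. The 14-day arrays entered the choice of these genes only through joint normalization, probe choice and the shared estimate of the spread. Of the 40 genes, 35 had the same sign at 14 days, against 54.9% of all genes, and 20 had the same sign with an unadjusted p under 0.05, against 3.99% of all genes. A low shared spread lowers p at both durations, so the share of 3.99% is not a fully like comparison. The count of 20 became 12 without control ASO replicate 4, and leaving out each other array gave 14 to 23. Only Cd33 and Avil passed the threshold at 14 days. Without those 2, the counts were 33 of 38 and 18 of 38. The median of the 24 genes that fell at 28 days was -0.26 at 14 days and -0.60 at 28 days, and that of the 16 that rose 0.13 and 0.28. The 28-day values chose the genes, so a smaller size at 14 days, found in 39 of 40, is partly set by that choice. Within the 14-day chips, 22 of the 40 kept the 28-day direction in at least 5 of 6. The same share over all genes was not taken, so this count is a description only. One 28-day CD33 ASO array, replicate 11, had Cd33 in the control range, and when the genes were chosen without it there were 42, 35 of them shared with the 40, of which 37 had the same sign and 25 also an unadjusted p under 0.05.

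**Figure D4:**
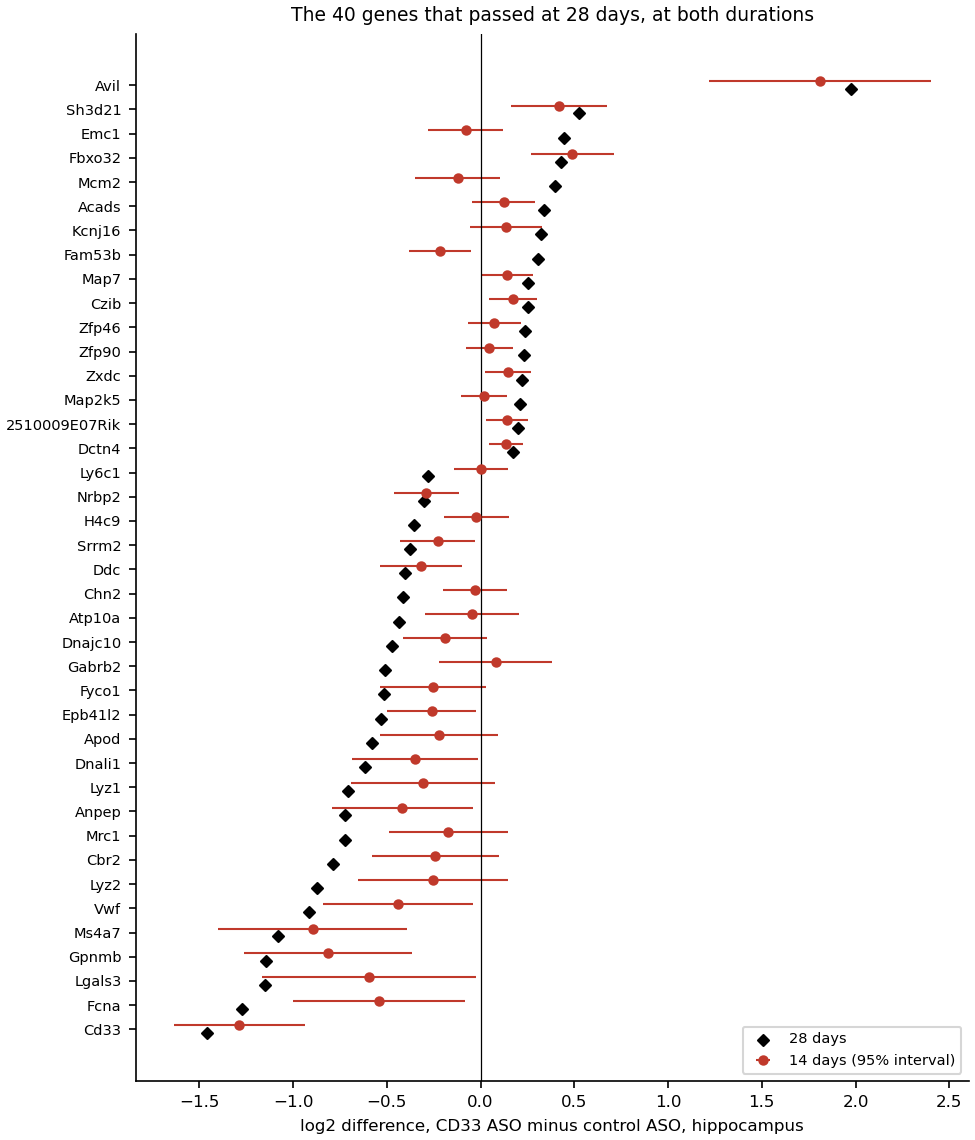
For each of the 40 genes that passed at 28 days, the log2 difference between CD33 ASO and control ASO is shown at 14 days (red, with its 95% confidence interval) and at 28 days (black). Most red points lie on the same side of 0 as the black ones and nearer to 0, and only those of Cd33 and Avil passed over all genes at 14 days.

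Some of the 40 are known as genes of myeloid cells, and those named here were picked after their values were seen. Ms4a7 differed by -0.90 at 14 days and -1.08 at 28 days, and Gpnmb by -0.81 and -1.14. Lgals3, the phagocyte lectin galectin-3, had a median of 8.92 with the CD33 ASO (8.66 to 9.54) and of 9.84 with the control ASO (7.86 to 10.59) at 14 days. The CD33 ASO arrays all lay inside the wide control range, and the difference was -0.60 ± 0.28, against -1.15 at 28 days. Fcna, ficolin A, a lectin that activates complement, was detected on 4 of 9 CD33 ASO arrays and 7 of 9 control ASO arrays, at -0.54 ± 0.23, against -1.27 at 28 days. Its CD33 ASO arrays at 14 days, from 5.66 to 6.22, all lay inside the control range of 4.65 to 7.40. Mrc1, the mannose receptor (-0.17 and -0.73 at 14 and 28 days), Cbr2 (-0.24 and -0.79) and the lysozyme genes Lyz2 (-0.25 and -0.87) and Lyz1 (-0.31 and -0.71), whose sequences are alike, had values nearer to 0 at 14 days.

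Other members of the 40 with the same sign at both durations came from several cell types. Vwf, the endothelial von Willebrand factor gene, had a median of 8.89 with the CD33 ASO (8.68 to 9.45) and 9.22 with the control ASO (8.52 to 10.42), with a difference of -0.44 ± 0.20 at 14 days and -0.92 at 28 days. Anpep, an aminopeptidase of pericytes and other cells, stood at -0.42 and -0.72, Ddc, the aromatic amino acid decarboxylase, at -0.32 and -0.40, Dnali1, an axonemal dynein gene, at -0.35 and -0.62, and Epb41l2, a membrane skeleton gene, at -0.26 and -0.53. Nrbp2, a pseudokinase gene, was -0.29 at 14 days and -0.30 at 28 days, and Srrm2, a splicing factor gene, -0.23 and -0.38. Among those higher with the CD33 ASO were Sh3d21 (0.42 and 0.52), Fbxo32 (0.49 and 0.43), Czib (0.17 and 0.25), Zxdc (0.15 and 0.22), Dctn4, a dynactin subunit (0.14 and 0.17), Map7, a microtubule-binding protein (0.14 and 0.26), and 2510009E07Rik (0.14 and 0.20). Further probes detected on every 14-day hippocampal array gave smaller 14-day values for Fbxo32 (0.05), Dctn4 (0.02) and Zxdc (0.07 and -0.02). Those of Czib and Srrm2 gave 0.17 and -0.25.

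By the brightest probe per gene, the 5 genes whose sign turned were Fam53b, Emc1, Mcm2, Gabrb2 and Ly6c1. Fam53b had a median of 7.01 with the CD33 ASO (6.69 to 7.13) and of 7.14 with the control ASO (6.90 to 7.58) at 14 days. Its difference was -0.21 ± 0.08 at 14 days and 0.30 at 28 days. Fam53b had the smallest p of all genes for a difference between the durations (adjusted p = 0.16). A second Fam53b probe gave -0.35 at 14 days and -0.03 at 28 days, without a turn. At 14 days it was detected on 1 CD33 ASO array and 5 control ASO arrays. A second Emc1 probe gave 0.39 and 0.03, also without a turn. At 14 days that probe was detected on 3 CD33 ASO arrays and 0 control ASO arrays. Ly6c1, an endothelial surface antigen gene, was at 0.00 ± 0.07 at 14 days and -0.28 at 28 days. No gene passed the test of the difference between the durations (459 genes, 4.71%, had an unadjusted p under 0.05), so that the smaller values at 14 days were not shown to differ from those at 28 days. Without control ASO replicate 1, Fam53b passed it (adjusted p = 0.0496). For Cd33 itself the difference of the effects was 0.17 ± 0.22, with a 95% interval from -0.28 to 0.62.

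Gene lists for the pathways and cell types of the tissue, 36 in all with 2 to 27 tested members each, gave 0 members that passed other than Cd33, which is in the lists of Siglec receptors and of Alzheimer risk genes. The lists are described by their counts and medians, beside a median of 0.00 and 48.5% of genes below 0 over all genes.

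In the Siglec and inhibitory receptor list, Cd33 was 1 of 9 tested members, and the other members that were detected lay between -0.09 and 0.13. Lilrb4a was detected on 0 of 9 arrays of either group. Sirpa, which binds the CD47 signal, was at 0.13, the microglial receptor gene Siglech at 0.09, Pecam1 at 0.07, and the phosphatase genes Ptpn6 and Ptpn11 at 0.03 and -0.03. Among 10 genes of activating ITAM signalling, the median was 0.03, with 5 below 0. Trem2 stood at 0.08, and its adaptor gene Tyrobp at -0.02. Fcgr4, an Fc receptor gene, had a difference of 0.73 ± 0.47, with means of 7.76 ± 0.93 and 7.03 ± 0.58 (adjusted p = 0.89). The 20 homeostatic microglial genes had a median of 0.03, with 7 below 0, and included Tmem119 at 0.10 and Laptm5 at -0.15. The 27 genes of plaque-associated microglia had a median of 0.02, with 10 below 0. Gpnmb and Lgals3, 2 of the 27, had an unadjusted p under 0.05, which 5.92% of all genes had. Their summed linear level was 92038 to 104248 with the CD33 ASO and 87150 to 104041 with the control ASO.

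The 9 border macrophage genes, which mark macrophages of meninges, vessels and choroid plexus, had a median of -0.17 at 14 days and -0.71 at 28 days, with 6 of 9 below 0 at 14 days. Their summed linear level ranged from 3480 to 5180 with the CD33 ASO (median 4194) and from 3073 to 7466 with the control ASO (median 5061). The median was sensitive to single animals, with -0.05 without CD33 ASO replicate 7 and -0.24 without CD33 ASO replicate 2. With no filter on detection it was -0.04. The 9 MHC class II genes had a median of 0.09 at 14 days, with 4 below 0, and -0.20 at 28 days. H2-Oa, a subunit of the peptide-loading regulator H2-O, had the smallest p of the list, at 0.33 ± 0.15 (adjusted p = 0.83), and H2-Ob was detected on 0 of 9 arrays of either group. H2-Eb1 stood at -0.15 and H2-Aa at -0.12, against -0.68 and -0.79 at 28 days, and the list median was 0.01 without control ASO replicate 3.

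Markers of tissue next to the hippocampus and of vessels and blood were as follows. The 13 choroid plexus genes had a median of 0.04, against -0.60 at 28 days, and a summed linear level of 9151 to 48169 with the CD33 ASO and 7309 to 50222 with the control ASO. The sign of that median rested on single animals, at -0.18 without CD33 ASO replicate 5 and 0.26 without control ASO replicate 1, and it was -0.12 with array weights. The 5 red blood cell genes had 0 below 0 and a median of 0.32, against -0.58 at 28 days, with Alas2, the erythroid heme synthesis enzyme, at 0.61 and -0.82. In the frontal cortex their 14-day median was also 0.32. The hippocampal 14-day median was 0.15 over 7 genes, 1 of them below 0, with no filter on detection. It was 0.01, with 2 of 5 below 0, with the 3 marker lists as covariates, of which this list is 1. The 22 mural cell and fibroblast genes had a median of 0.08, against -0.18 at 28 days. It was -0.01 at 14 days with those covariates, which include this list's own mean and so draw it toward 0. The 7 ependymal genes had a median of -0.02, with 5 below 0, against -0.20 at 28 days, and the 15 genes of thalamus and neocortex -0.02, with 9 below 0, and 0.00 at 28 days. The part of these cell types in the 28-day values was not tested here.

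The interferon-stimulated genes had the highest median of the lists with over 5 members, 0.23 over 18 genes with 1 below 0, against 0.06 at 28 days and -0.05 in the frontal cortex at 14 days. No member passed. Usp18, a protease that removes ISG15, had a median of 8.24 with the CD33 ASO (7.56 to 10.04) and 7.67 with the control ASO (7.04 to 8.59), a difference of 0.75 ± 0.33 that did not pass (adjusted p = 0.82), and its other probes gave 0.56 and 0.34. Oasl2 (0.56), Isg15 (0.48), Ifit3 (0.46) and Rsad2 (0.36) had similar values with wide spread. The summed linear level ranged from 10868 to 25087 with the CD33 ASO (median 14539) and from 10467 to 16998 with the control ASO (median 12780), so that the groups overlapped and the highest CD33 ASO array lay well above the others' median. Leaving out any of the 18 arrays gave list medians from 0.17 to 0.29, and array weights gave 0.15. MHC class I genes (median 0.12 over 13, 2 below 0) and complement genes (0.13 over 11, 2 below 0) had positive medians as well, among them H2-M3 and Tapbp at 0.28 each, and C1qb at 0.17. In the frontal cortex at 14 days both lists had a median of -0.04. Fcna, at -0.54, is the complement gene of smallest p. The complement median was 0.06 without CD33 ASO replicate 5 and 0.05 with the 3 marker lists as covariates.

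The immediate early genes, which neurons transcribe within minutes of activity, had the lowest median, -0.28 over 16 genes with 13 below 0, close to -0.26 at 28 days. Their median in the frontal cortex at 14 days was -0.18. Egr1 had a median of 12.40 with the CD33 ASO (11.69 to 12.74) and 12.81 with the control ASO (12.05 to 13.18), and Dusp6, a phosphatase that acts on ERK kinases, 11.42 (11.05 to 11.66) and 11.70 (11.43 to 11.85). The ranges overlapped for both, and the differences of -0.42 ± 0.19 and -0.25 ± 0.11 did not pass (adjusted p = 0.83 and 0.82). Arc stood at -0.58 and Fos at -0.62. The summed linear level was 14573 to 20915 with the CD33 ASO and 17730 to 32712 with the control ASO. Over the 18 fits without 1 array, the list median lay between -0.36 and -0.23.

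Myelin genes had a median of -0.15 over 14 genes, with 11 below 0 and 5 at an unadjusted p under 0.05, all lower with the CD33 ASO, where 2.94% of all genes were lower at that p. Their median in the frontal cortex at 14 days was -0.11. Opalin, a membrane protein of mature oligodendrocytes, had a median of 10.08 with the CD33 ASO (9.14 to 10.55) and 10.58 with the control ASO (10.42 to 10.98), and 7 of 9 CD33 ASO arrays were under every control array (difference -0.61 ± 0.20, adjusted p = 0.55). Mog stood at -0.43, Mal at -0.28, Cryab at -0.26 and Cldn11, a tight junction gene of the myelin sheath, at -0.19, whereas the abundant Mbp was at -0.06. Cholesterol synthesis genes had 11 of 12 below 0, with a median of -0.14, and genes of the heat shock and unfolded protein response 17 of 21, with a median of -0.07, including Dnajb5 at -0.44 and Chac1 at -0.23. In the frontal cortex at 14 days these lists had medians of 0.04 and -0.01. The heat shock list had a median of -0.03 with a gene's probes averaged. Markers of subfields (median 0.00 over 14 genes, 7 below 0) and of the handling of oligonucleotides (-0.02 over 15, 8 below 0) lay near the level of all genes. The synapse median was also near 0, at 0.02 over 18, but 5 of 18 were below 0, against 48.5% of all genes.

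Reactive astrocyte genes had 12 of 15 below 0 and a median of -0.10, which was -0.20 without CD33 ASO replicate 5 and -0.03 without control ASO replicate 7. In the frontal cortex at 14 days the median of this list was also -0.10. Astrocyte identity genes had 3 of 15 below 0 and a median of 0.08, with Gja1, the gap junction gene of astrocytes, at 0.13 ± 0.05 and Ndrg2 at 0.18 ± 0.09 (adjusted p = 0.66 and 0.83). Lysosomal genes had 6 of 24 below 0 (median 0.06), endothelial genes 4 of 16 (0.05), cytokines and chemokines 6 of 15 (0.10), nucleic acid sensors and Toll-like receptors 4 of 12 (0.05), monocyte and neutrophil genes 2 of 8 (0.09), lymphocyte genes 2 of 5 (0.07) and oligodendrocyte precursor genes 3 of 7 (0.05). Alzheimer risk genes had 11 of 22 below 0 (median 0.00), interneuron genes 9 of 13 (-0.06), neurogenesis genes 6 of 11 (-0.06), glucocorticoid-responsive genes 9 of 16 (-0.04), circadian clock genes 8 of 13 (-0.02) and sex-linked genes 2 of 2 (-0.11). Besides choroid plexus, the sign of further list medians turned without 1 or another of the 18 arrays. These were the Siglec, subfield, oligonucleotide handling, ependymal, thalamus and neocortex, endothelial, lymphocyte, oligodendrocyte precursor, Alzheimer risk, neurogenesis and circadian medians. The sign of the monocyte and neutrophil median turned with the stricter filter on detection.

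**Figure D5:**
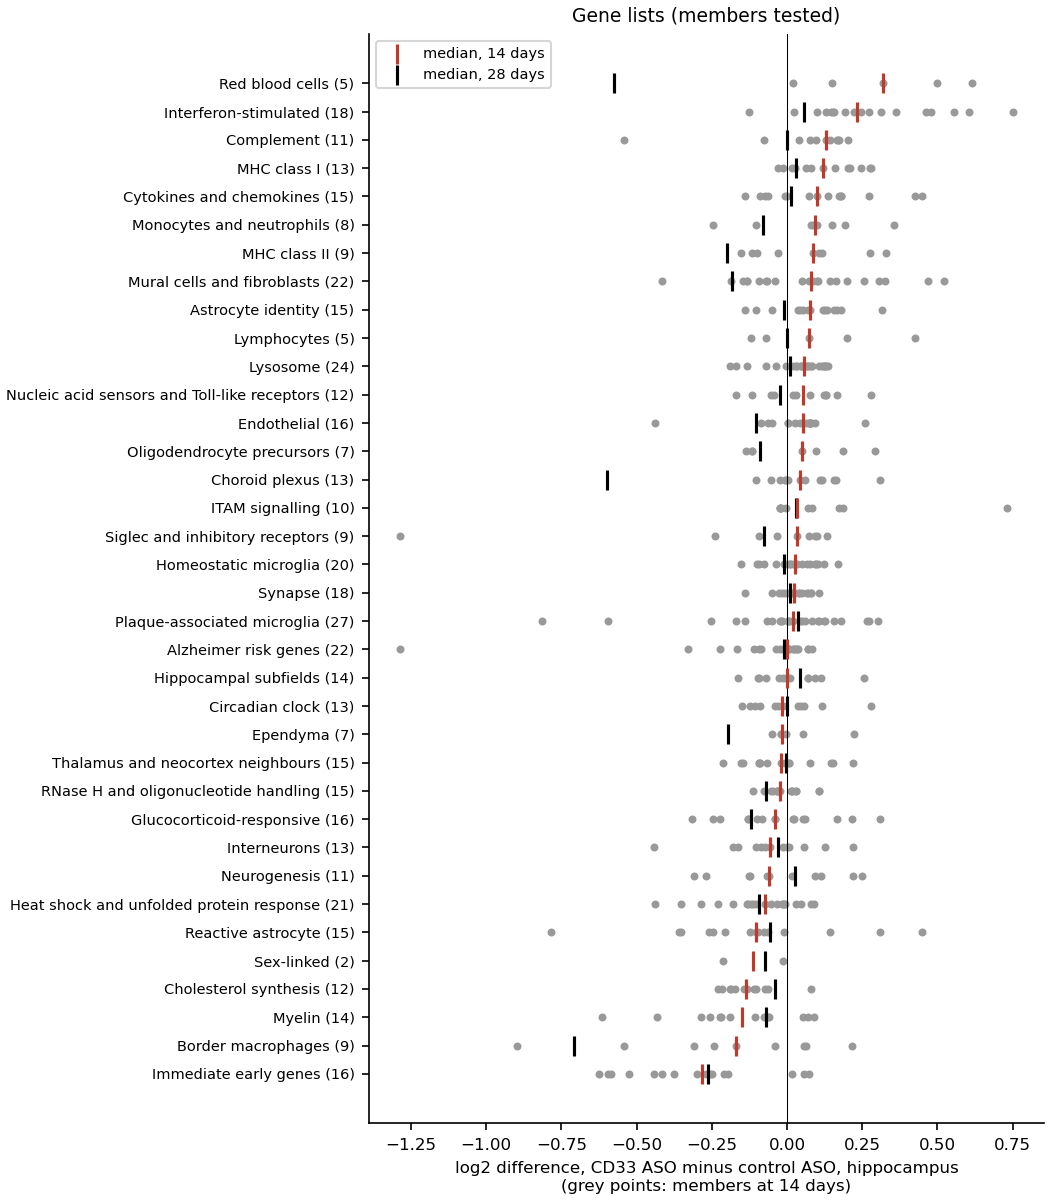
Each row is a gene list with the number of its tested members, and grey points give the members' log2 differences between CD33 ASO and control ASO at 14 days, with the list's median at 14 days in red and at 28 days in black. Red blood cell and interferon-stimulated genes have the highest 14-day medians (0.32 and 0.23), immediate early genes the lowest (-0.28), and the medians of choroid plexus and border macrophage genes are far lower at 28 days (-0.60 and -0.71).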

How the data were processed

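The authors deposited a linear signal intensity per probe and array, background-subtracted and not normalized per the labels, and a detection p-value beside it, for 25697 probes. Their second deposited table holds processed log2 values for 19542 probes, used as an alternative only. BeadStudio, GenomeStudio and Partek are named per the submitters' processing notes, without versions. In R 4.3.3, the neqc function (limma 3.58.1, offset 16) normalized the signals of the 90 arrays together, which pulls differences of dim genes toward 0. A probe was detected at a detection p-value under 0.01, and probes detected on at least 9 arrays were kept. Platform annotation named 13271 of the 14081 kept probes, and the brightest per gene gave 9741 genes.

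Group means of ASO by duration over the 44 hippocampal arrays were fitted with lmFit and eBayes, 2-sided, with Benjamini-Hochberg adjustment over all genes at 0.05. All adjusted p-values of genes come from limma. Tissues were compared through differences within animals. Where a group detected a gene on no array, the fold is a bound, the bright mean over the mean of the lowest detected signal per array or the gene's own if higher. Exact permutation tests used scipy 1.17.1. The number of arrays limits the precision. The test was tried on simulated data.

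The comparison and the lists (746 members, 595 with a named probe, 492 tested) were chosen with earlier results of these data known. Genes named were Cd33, the passing genes, the 25 of smallest p, 2 per list by p, and 28-day genes with an unadjusted p under 0.05 at 14 days. Other list members and 28-day genes named, and Sgk3, were picked after their values were seen.

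Alternatives covered background correction, scaling, filter, chip block, covariates, array weights, probe choice and leaving out each array. Same-numbered replicates did not deviate together.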

Additional observations from a re-analysis of the deposited data

Results flagged for a closer look

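In 4 of 82 groups of 9 arrays, formed by 41 genes in both groups, 1 array stood apart from the other 8 by Dixon's criterion, where chance gives about 4.1. Bdh2 was highest on CD33 ASO replicate 5, at 9.53, with the next array at 9.02. Dctn4 was highest on CD33 ASO replicate 6, at 11.85, with the next at 11.67. Epb41l2 was lowest on CD33 ASO replicate 3, at 6.90, with the next at 7.38. Dnali1 was lowest on control ASO replicate 7, at 5.68, where it was not detected, with the next at 6.21.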

How the results depend on the processing

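Cd33 and Avil passed under every alternative run and in each of the 18 fits without 1 array. The count of 2 genes became 4 with the 14-day arrays alone (Casp4 and Fbxo32 added) and 4 with 3 marker lists as covariates (Ms4a7 and Fbxo32 added), and 3 with the chip as a block (Gpatch4 added, adjusted p = 0.048). Cd33 ranged from -1.30 to -0.81 (without background correction) over the alternatives and from -1.36 to -1.23 without 1 array. Genes differing between the durations ranged from 0 to 1 without 1 array. The replicate numbers did not pair the samples (correlations of same-numbered arrays from -0.20 to 0.21, 2 of 9 highest with their own number), and with the replicate block Cd33 stayed at -1.29 (adjusted p = 0.0085) and 2 genes passed. Of 544 values of the 39 other genes named by p, 540 kept their direction and side of the threshold, 4 passed where they had not, and 0 reversed. Genes near the background, Cd33 under the CD33 ASO among them, have compressed differences.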
